A study of Homo sapiens with 8 samples.

Results

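Messenger RNA levels of 39 genes of the hypoxia response and of glucose breakdown were compared between sphere-derived cells (ovarian cancer stem cells, OCSC) and adherent bulk cells of 2 ovarian cancer cell lines. The genes were taken from a written list of targets of the hypoxia-inducible factors (HIF) and of glycolytic enzymes. Membership does not depend on measured values, but the list was drawn up with earlier results of these data known. Of the 39, 38 were among the 20339 genes of the count table and ANGPTL4 was not. All 38 had a mean normalized count of at least 10 over the libraries and were kept with 16763 genes in all.

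The study sequenced 8 RNA libraries, 1 for each condition. OVCAR3 cells (passage 4) were either control cells (OVCAR3-CTR) or cells in which MGP, the gene of the secreted matrix Gla protein, was disrupted with CRISPR/Cas9 and a pair of guides in isolated clones (OVCAR3-MGPKO). COV318 cells (passage 18) carried a lentiviral MGP vector (COV318-MGP) or the empty vector (COV318-CTR) and were selected in puromycin. Bulk cells grew attached in serum, OVCAR3 in RPMI with insulin and COV318 in DMEM, whereas OCSC were spheres kept without attachment in DMEM/F12 with B27, EGF and FGF2, so that sphere growth and medium cannot be told apart. Depth was 12294591 to 37393919 counts on genes. With 1 library per condition, the difference between any pair of libraries has no replicate check, and the 95% intervals given below cover counting error only.

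The targeted gene itself, MGP, gave 40393 (bulk) and 28694 (OCSC) counts in the COV318-MGP population and no more than 2 in any of the other 6 libraries. The OVCAR3 labels were therefore not checked by this gene. The COV318-MGP libraries stood apart. COV318-MGP and COV318-CTR bulk differed by a log2 fold change (log2FC) of at least 1 in 45.7% of genes, against 21.6% between the OVCAR3 bulk libraries and 48.3% to 53.4% between bulk libraries of different lines. Of 10 ovarian epithelial markers, 5 (KRT7, PAX8, MUC16, MSLN and SOX17) were at or under 3 counts in both COV318-MGP libraries, with KRT7, PAX8 and SOX17 at 0, and none was in the other 6 libraries. The normalized counts of the 10 markers summed to 2011 and 8492 in COV318-MGP bulk and OCSC, to 41560 and 16629 in COV318-CTR, and to 117935 to 232776 in OVCAR3. Of 7 genes written down for the embryonic kidney line HEK293, NEFL and NEFM had 2564 and 891 counts in the bulk library of COV318-MGP and 0 in that of COV318-CTR, whereas DPPA4 had 2 and 19621. The normalized counts of the 7 genes summed to 12824 and 6475 in bulk and OCSC of COV318-CTR. The sums were lower in COV318-MGP, at 4692 and 4568, and were 317 to 635 in OVCAR3. The 7 fibroblast and mesothelial markers in the table summed to 12855 in COV318-CTR bulk and to 384 to 3292 elsewhere, and the 3 immune markers to 12 to 100. Small noncoding RNA took 2.09% to 7.55% of the counts, the highest share in COV318-MGP OCSC. The part of these differences in the results below was not tested.

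Cells short of oxygen stabilize the alpha subunits of HIF, which pair with ARNT and bind promoters and enhancers that hold a short core sequence. The genes switched on in this way move glucose into the cell, run glycolysis to lactate, export acid, remodel collagen, call for blood vessels and feed back on oxygen sensing through the EGLN prolyl hydroxylases. Glycolysis is also driven without hypoxia in many tumour cells.

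The HIF core was searched in RefSeq promoter windows (GRCh38.p14, 250 bases before to 50 after each gene start) as ACGTG or GCGTG on either strand. A match was present in at least 1 window of 32 of the 35 genes with an entry (91.4%), compared with 52.4% of the 27305 genes with a window, and in 47 of their 60 windows (78.3%), compared with 48.4% of the 35116 windows of all genes. The longer sequence CACGTG, which contains ACGTG and is also the E-box bound by MYC and other factors, was in 10 of the 60 windows (16.7%) and in 7.26% of all windows. Such a match is a description of the letters in the window. Promoter stretches of 4 genes are shown because they were among those with the most opposed values in COV318 (below) and lie outside annotated exons. Capitals mark the core, read on either strand, in the order ANKRD37 (chr4:185396654-185396727, plus strand), ADM (chr11:10304947-10305001, plus strand), PFKFB3 (chr10:6144728-6144782, plus strand) and LDHA (chr11:18394353-18394519, plus strand).
ANKRD37: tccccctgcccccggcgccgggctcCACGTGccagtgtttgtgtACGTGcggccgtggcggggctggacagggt
ADM: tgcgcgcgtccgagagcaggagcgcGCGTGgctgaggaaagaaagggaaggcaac
PFKFB3: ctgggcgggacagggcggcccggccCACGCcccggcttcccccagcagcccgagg
LDHA: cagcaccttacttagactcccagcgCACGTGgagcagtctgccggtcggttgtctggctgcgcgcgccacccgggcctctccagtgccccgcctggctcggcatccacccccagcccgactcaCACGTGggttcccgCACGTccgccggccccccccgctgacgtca
Counting overlapping matches on both strands, the LDHA stretch held 5, that of ANKRD37 held 3, and those of ADM and PFKFB3 held 1 each.

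OCSC were first compared with bulk over the 4 populations. None of the 38 genes passed the test across populations. edgeR's quasi-likelihood test, with the population as a block and 3 residual degrees of freedom, called 0 of 38 genes and 0% of the 16763 genes at an adjusted p under 0.05, and 2 of the 38 and 1300 of all genes had an unadjusted p under 0.05. DESeq2 called 249 genes, none of them among the 38. Without the COV318-MGP population edgeR called 0 of 37 genes, with a smallest adjusted p of 0.160. The 4 populations come from 2 lines and are not independent, so that these p-values describe the spread between these populations only. The test of a difference between the lines in the effect of sphere culture also called 0 of 38 genes, with 2 of 16763 genes (0.0119%) called overall and an unadjusted p under 0.05 for NDRG1 alone of the 38.

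Of the 38 genes, 4 were higher in OCSC in all 4 populations, against 7.64% of all genes, and 0 were lower in all 4, against 7.02%. They were EGLN1, KDM3A, INSIG2 and HK1. The normalized count of KDM3A, a histone demethylase induced in hypoxia, was 1021 in bulk and 1244 in OCSC of OVCAR3-CTR, 704 and 1026 in OVCAR3-MGPKO, 2661 and 3095 in COV318-CTR, and 969 and 2771 in COV318-MGP. Every OCSC library was above its bulk library, with the widest gap in COV318-MGP. Its mean log2FC over the 4 populations was 0.64 ± 0.60 (SD, n = 4), with an edgeR adjusted p of 0.605. EGLN1, the main oxygen-sensing prolyl hydroxylase, was the most even of the 38 genes, with a mean log2FC of 0.41 ± 0.17 (SD, n = 4) and an edgeR adjusted p of 0.613. Of the EGLN1 exon bases, 55.8% are shared on the same strand with another annotated gene, so that its level is uncertain.

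The populations differed in how many of the 38 genes lay past a log2FC of 1. In OVCAR3-CTR, 3 genes were higher in OCSC by at least that much, against 12.8% of all genes, and 2 were lower, against 12.5%. With CPM these counts were 2 and 3. In OVCAR3-MGPKO, 1 was higher, against 7.23%, and 4 were lower, against 9.00%. With CPM these were 1 and 6. In COV318-CTR, 2 were higher, against 10.3%, and 14 were lower, against 8.30%. With CPM these were 2 and 10. In COV318-MGP, 18 were higher, against 9.36%, and 1 was lower, against 8.15%. The 18 became 13 with TMM factors and 11 with CPM. The median log2FC of the 38 genes was 0.21 in OVCAR3-CTR, -0.02 in OVCAR3-MGPKO, -0.64 in COV318-CTR and 0.84 in COV318-MGP, while the median of all genes was between -0.02 and 0.03 in each. The 2 COV318 populations thus lay on opposite sides of the OVCAR3 ones. In RNA from whole cultures, a smaller share of cells that express a gene and less of its RNA per cell cannot be told apart.

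**Figure D1:**
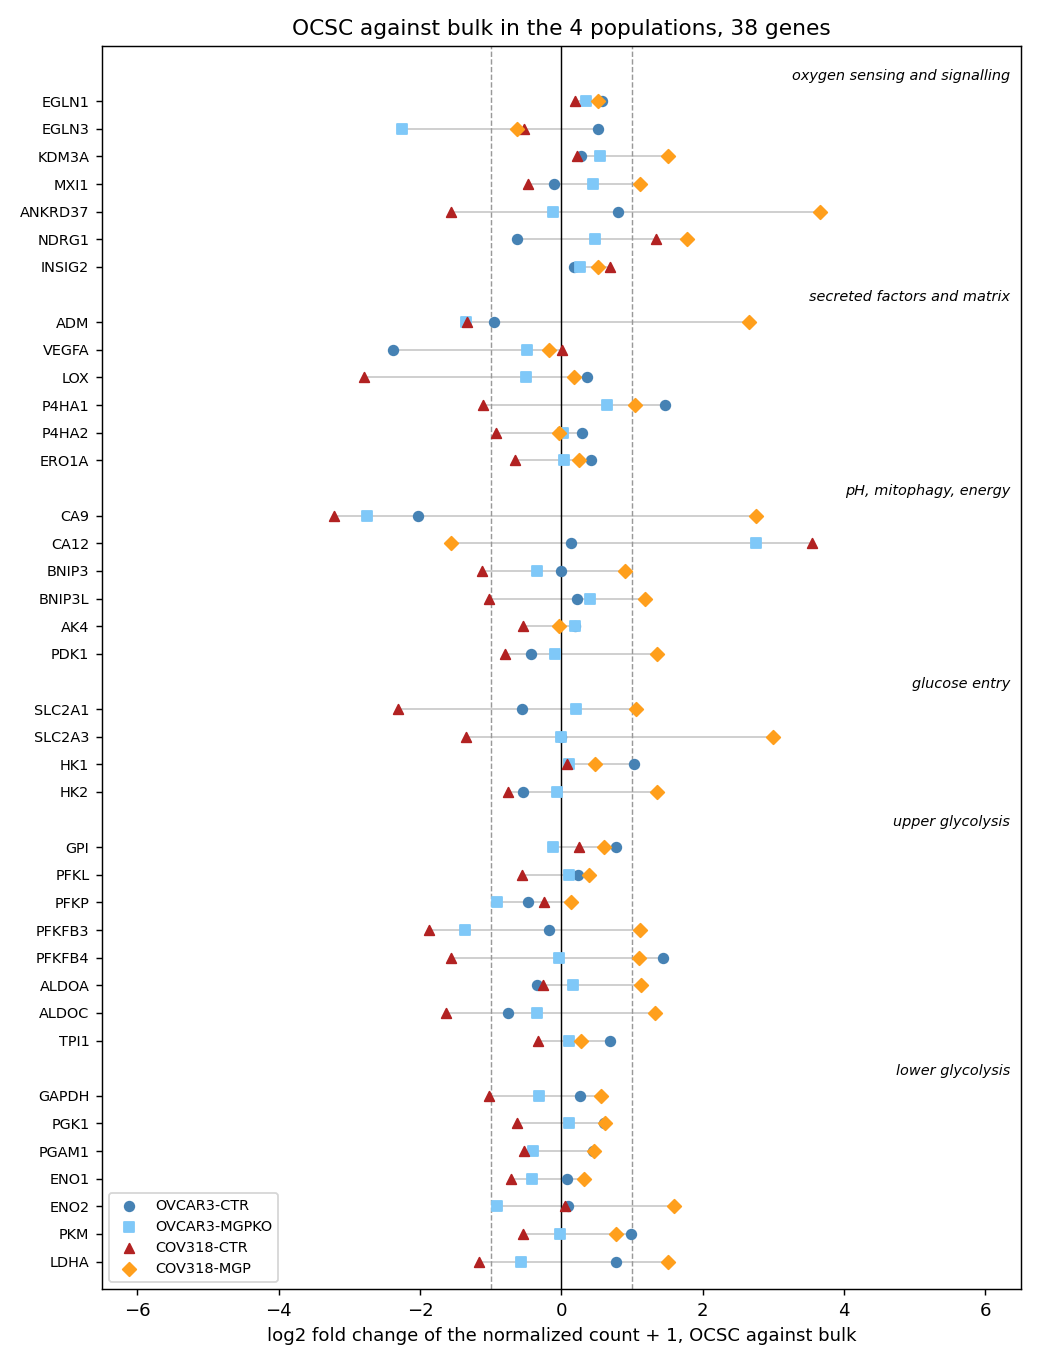
The log2 fold change of OCSC against bulk (horizontal axis, on the normalized count + 1) is plotted for each of the 38 genes, 1 point per population and 1 library on each side of the comparison, with dashed lines at -1 and 1. COV318-CTR lies at or near the low end of many rows and COV318-MGP at the high end, with CA12 the other way round and VEGFA lowest in OVCAR3-CTR.

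In COV318 the sphere effect pointed in opposite directions in the control and the MGP population. A log2FC below 0 in COV318-CTR and above 0 in COV318-MGP was found for 26 of 38 genes, against 26.1% of all genes. With at least 1 in size on both sides this was 11 of 38, against 1.33% of all genes, a pattern that was singled out after its values were seen. The 11 were ANKRD37, ADM, P4HA1, CA9, BNIP3L, SLC2A1, SLC2A3, PFKFB3, PFKFB4, ALDOC and LDHA. CA12 alone had the reverse pattern. For CA9 and SLC2A3 the pattern rests on few counts. CA9 had 501 and 19 counts in COV318-CTR but 0 and 4 in COV318-MGP, and SLC2A3 had 17 and 2 counts in COV318-CTR, where the 95% interval of its log2FC ran from -4.78 to 0.45. The count of 11 was 7 with TMM factors and 6 with CPM, since P4HA1, SLC2A1, PFKFB3 and PFKFB4 then dropped under the threshold, and BNIP3L too with CPM. All 11 stayed below 0 in COV318-CTR and above 0 in COV318-MGP with both.

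**Figure D2:**
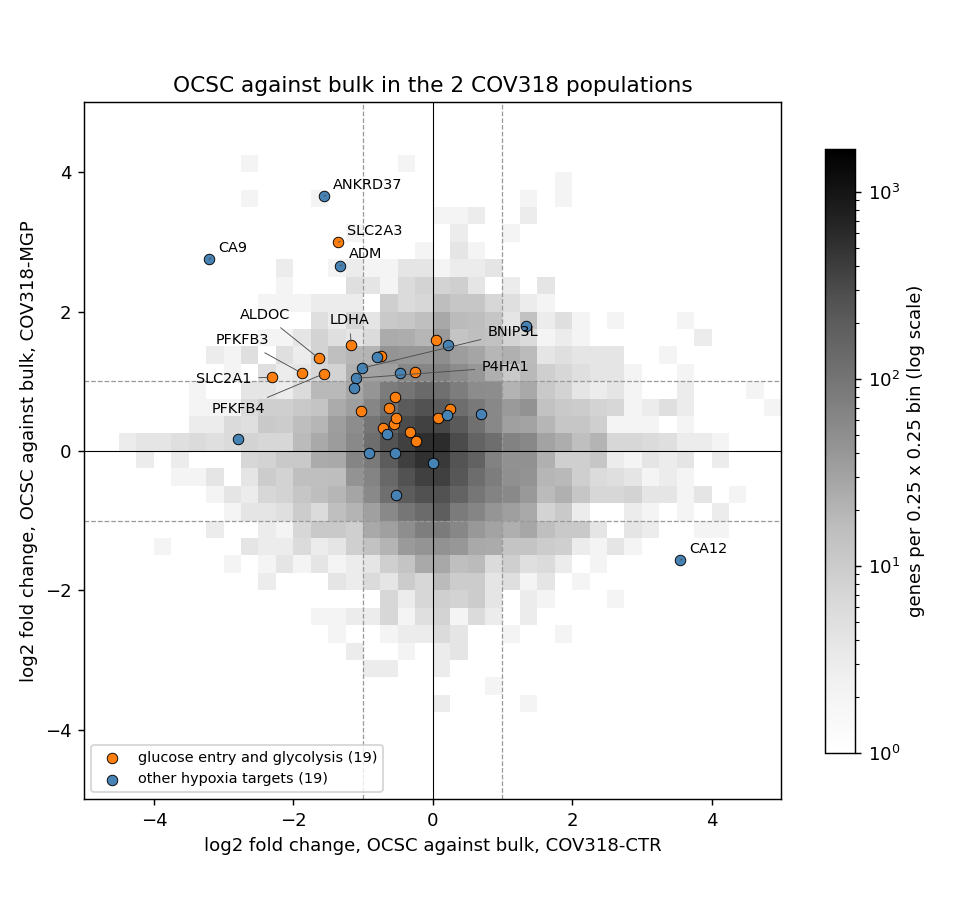
Each gene is placed by its log2 fold change of OCSC against bulk in COV318-CTR (horizontal axis) and COV318-MGP (vertical axis). Grey shows the number of genes among all 16763 per bin on a log scale (38 genes lie outside the plotted range of -5 to 5), orange the 19 glucose entry and glycolysis genes and blue the other 19. The orange points all lie above 0 on the vertical axis, 11 labelled genes fill the upper left corner and CA12 is alone at the lower right.

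The oxygen sensing and signalling genes held the widest single difference in COV318-MGP. ANKRD37 (ENSG00000186352.9, chr4:185396021-185400628, hg38) encodes a small ankyrin-repeat protein and is a known HIF target. It had normalized counts of 36.3 in bulk and 470 in OCSC of COV318-MGP. In COV318-CTR it had 138 and 46.1, in OVCAR3-CTR 24.7 and 43.9, and in OVCAR3-MGPKO 48.3 and 44.6. The COV318-MGP OCSC library was the highest of the 8, and the other 7 lay between 24.7 and 138. The log2FC was 3.66 (95% interval 3.31 to 4.10) in COV318-MGP and -1.56 (-2.17 to -1.04) in COV318-CTR. On the annotated gene, 40.3% of the exon bases of ANKRD37 overlap UFSP2 on the other strand, and whether counting used the strand is not stated.

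NDRG1, a stress-response protein of differentiated epithelia, separated the COV318 populations more than the cultures. Its normalized count was 25.9 in bulk and 66.9 in OCSC of COV318-CTR, against 1647 and 5682 in COV318-MGP. In OVCAR3-CTR it was 4330 and 2809, and in OVCAR3-MGPKO 1493 and 2073. NDRG1 was higher in OCSC in both COV318 populations, by a log2FC of 1.34 (0.75 to 1.99) and 1.79 (1.72 to 1.86), and lower in OVCAR3-CTR by -0.62 (-0.70 to -0.55). The mean difference between lines was 1.64 on the log2 scale, with an edgeR adjusted p of 0.456.

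EGLN3, a prolyl hydroxylase that HIF itself induces, had its highest normalized count in OVCAR3-MGPKO bulk. There it was 1042, compared with 219 in the OCSC of the same cells, 208 and 300 in OVCAR3-CTR, 137 and 95.1 in COV318-CTR, and 255 and 165 in COV318-MGP. That 1 library stood above the other 7. The log2FC of OCSC against bulk was -2.25 (-2.46 to -2.05) in OVCAR3-MGPKO, and the mean over 4 populations was -0.72 ± 1.14 (SD, n = 4). MXI1, a repressor that opposes MYC, had a log2FC of 1.12 in COV318-MGP, -0.47 in COV318-CTR, 0.46 in OVCAR3-MGPKO and -0.10 in OVCAR3-CTR, and INSIG2, a brake on sterol synthesis, ranged from 0.18 to 0.70 over the populations.

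Among the secreted factors and matrix enzymes, ADM also had opposed values in COV318. ADM (ENSG00000148926.10, chr11:10305073-10307397, hg38) encodes adrenomedullin, a vasodilator peptide. Its normalized count was 123 in bulk and 779 in OCSC of COV318-MGP, 140 and 55.0 in COV318-CTR, 77 and 29.7 in OVCAR3-MGPKO, and 47.8 and 24.3 in OVCAR3-CTR. OCSC were below bulk in 3 populations and above it in COV318-MGP, whose OCSC library was the highest of all. The log2FC was 2.66 (2.44 to 2.90) in COV318-MGP and -1.33 (-1.89 to -0.85) in COV318-CTR.

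VEGFA, the main angiogenic growth factor, did not have opposed values in COV318. Its normalized count was 5850 in OVCAR3-CTR bulk and 1121 in the matching OCSC, and the other 6 libraries lay between 547 and 1207. The high OVCAR3-CTR bulk library made the log2FC -2.38 (-2.48 to -2.29) in that population. In COV318-CTR, with 631 and 636, it was 0.01 (-0.15 to 0.17), and in COV318-MGP, with 1207 and 1069, it was -0.17 (-0.30 to -0.05).

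LOX, which crosslinks collagen, was lower in OCSC of COV318-CTR, where its normalized count was 1773 in bulk and 256 in OCSC. It was 353 and 399 in COV318-MGP, 202 and 261 in OVCAR3-CTR, and 146 and 103 in OVCAR3-MGPKO. The COV318-CTR bulk library stood above the other 7, which lay between 103 and 399, and the log2FC there was -2.79 (-3.02 to -2.57). The collagen prolyl hydroxylase subunits P4HA1 and P4HA2 differed from each other. P4HA1 had normalized counts of 416 and 1156 in OVCAR3-CTR, 371 and 582 in OVCAR3-MGPKO, 4601 and 2135 in COV318-CTR, and 2338 and 4811 in COV318-MGP. It was thus higher in OCSC in 3 populations and lower in COV318-CTR. P4HA2 had a log2FC of -0.92 in COV318-CTR and of 0.29 or less in size in the other 3. ERO1A, an oxidase of the endoplasmic reticulum, ranged from -0.66 in COV318-CTR to 0.42 in OVCAR3-CTR.

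The carbonic anhydrases, which help to handle acid at the cell surface, went in opposite directions in COV318-CTR. CA12 (ENSG00000074410.14, chr15:63321378-63381846, hg38) had normalized counts of 107 in bulk and 1265 in OCSC of COV318-CTR, 49.4 and 339 in OVCAR3-MGPKO, 120 and 133 in OVCAR3-CTR, and 307 and 103 in COV318-MGP. OCSC were far above bulk in COV318-CTR and OVCAR3-MGPKO and below it in COV318-MGP, and the log2FC was 3.55 (3.34 to 3.79), 2.76 (2.32 to 3.27) and -1.57 (-1.95 to -1.22) in these 3 populations. CA9 was detected above a few counts in COV318-CTR only, with a normalized count of 270 in bulk and 28.2 in OCSC and a log2FC of -3.21 (-4.00 to -2.60). In OVCAR3 it had 2 and 0 counts in CTR and 5 and 0 in MGPKO. Of the CA9 exon bases, 35.7% overlap ARHGEF39 on the other strand, and whether counting used the strand is not stated.

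The mitophagy receptors BNIP3 and BNIP3L were both lower in OCSC of COV318-CTR and higher in OCSC of COV318-MGP, and lay on opposite sides of 0 in OVCAR3-MGPKO. BNIP3L was 3703 and 1825 in COV318-CTR, 1499 and 3411 in COV318-MGP, 2917 and 3416 in OVCAR3-CTR, and 2074 and 2759 in OVCAR3-MGPKO, in normalized counts. BNIP3 had a log2FC of -1.13 in COV318-CTR and of 0.90 in COV318-MGP, and was at 0.00 in OVCAR3-CTR. In OVCAR3-MGPKO the log2FC was -0.35 (-0.57 to -0.12) for BNIP3 and 0.41 (0.33 to 0.50) for BNIP3L. PDK1, a kinase that closes the entry of pyruvate into mitochondria, had a log2FC of -0.79 in COV318-CTR and of 1.35 in COV318-MGP, where its normalized count of 3094 in OCSC was the highest of the 8, and of -0.43 and -0.09 in OVCAR3-CTR and OVCAR3-MGPKO. AK4, a mitochondrial adenylate kinase, stayed between -0.54 and 0.20.

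Glucose entry and glycolysis comprised 19 genes. In COV318-MGP 19 of 19 were above 0 in OCSC against bulk, against 49.1% of all genes, and in COV318-CTR 16 of 19 were below 0, against 51.2%. With CPM the first count was 18. Their median log2FC was 0.78 in COV318-MGP, -0.62 in COV318-CTR, 0.24 in OVCAR3-CTR and -0.06 in OVCAR3-MGPKO. In COV318-CTR GPI, HK1 and ENO2 were the exceptions, with 0.24, 0.08 and 0.05. The 7 enzymes of the lower part of the pathway, from GAPDH to LDHA, were all above 0 in OVCAR3-CTR, as were 51.5% of all genes, and the widest was PKM with 0.98. In OVCAR3-MGPKO only 1 of these 7 was above 0, compared with 8630 of all 16763 genes, and their median was -0.40.

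The mRNA levels of the glucose transporters SLC2A1 (GLUT1) and SLC2A3 (GLUT3) differed between the populations. SLC2A1 had normalized counts of 6789 in bulk and 4636 in OCSC of OVCAR3-CTR, 2620 and 3023 in OVCAR3-MGPKO, 9219 and 1862 in COV318-CTR, and 412 and 857 in COV318-MGP. Both COV318-MGP libraries lay below the other 6. SLC2A3 was at 0 counts in all 4 OVCAR3 libraries, had normalized counts of 9.2 and 3.0 in COV318-CTR, and 472 and 3772 in COV318-MGP. Per kilobase of annotated exon, SLC2A3 reached 520 normalized counts in COV318-MGP OCSC against 130 for SLC2A1, whereas in COV318-CTR OCSC the levels were 0.41 and 282. The nearly identical gene SLC2A14 could share reads with SLC2A3, so its level is uncertain to that extent.

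The hexokinases, which trap glucose in the cell, also differed from each other. HK1 had normalized counts of 2324 and 4736 in OVCAR3-CTR, 2160 and 2333 in OVCAR3-MGPKO, 575 and 608 in COV318-CTR, and 3144 and 4363 in COV318-MGP. OCSC were above bulk in each population, most in OVCAR3-CTR with a log2FC of 1.03 (0.94 to 1.11), and the mean was 0.42 ± 0.44 (SD, n = 4). In COV318-CTR the log2FC of HK1 was 0.08, with an interval that held 0 (-0.09 to 0.25). HK2, the hypoxia-inducible isozyme, was 1741 and 1198, 1096 and 1054, 1371 and 816, and 983 and 2522 in the same order of populations, so that only COV318-MGP OCSC stood above its bulk library.

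The enzymes that make and break fructose 2,6-bisphosphate, an activator of phosphofructokinase, were among the opposed genes. PFKFB3 had normalized counts of 659 and 1427 in COV318-MGP, 661 and 180 in COV318-CTR, 738 and 288 in OVCAR3-MGPKO, and 237 and 210 in OVCAR3-CTR. With the DESeq2 size factors the COV318 bulk libraries differed by 2 normalized counts. OCSC lay on either side of them, at a log2FC of 1.11 (0.99 to 1.24) in COV318-MGP and -1.87 (-2.16 to -1.61) in COV318-CTR. With TMM factors or CPM, PFKFB3 and PFKFB4 no longer passed the threshold on both sides. PFKFB4 had 267 and 577 in COV318-MGP, 283 and 95.1 in COV318-CTR, 418 and 409 in OVCAR3-MGPKO, and 130 and 354 in OVCAR3-CTR. Phosphofructokinase itself moved less, with PFKL between -0.55 and 0.39 and PFKP between -0.91 and 0.14 on the log2FC scale.

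ALDOC, an aldolase isozyme best known from brain, was also among the opposed genes. Its normalized count was 313 and 786 in COV318-MGP, 52.8 and 16.3 in COV318-CTR, 165 and 130 in OVCAR3-MGPKO, and 37.0 and 21.5 in OVCAR3-CTR. Only in COV318-MGP was OCSC above bulk, with a log2FC of 1.33 (1.16 to 1.5). The level of ALDOA, the common isozyme, was between 30.3 and 268 normalized counts per kilobase, far below that of TPI1 next in the pathway, at 3760 or more. Of the ALDOA exon bases, 42.8% are shared on the same strand with other annotated genes, so that its level is uncertain.

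LDHA (ENSG00000134333.15, chr11:18394560-18408425, hg38), which turns pyruvate into lactate, had normalized counts of 8145 in bulk and 23300 in OCSC of COV318-MGP, 7144 and 3177 in COV318-CTR, 8556 and 14580 in OVCAR3-CTR, and 11560 and 7804 in OVCAR3-MGPKO. In each line 1 population was higher in OCSC and the other lower. The log2FC was 1.52 (1.48 to 1.55), -1.17 (-1.24 to -1.10), 0.77 (0.73 to 0.81) and -0.57 (-0.61 to -0.53) in this order. ENO2, the neuronal enolase, was 534 and 1609 in COV318-MGP and 222 and 230 in COV318-CTR, with 159 and 169 in OVCAR3-CTR and 313 and 166 in OVCAR3-MGPKO. ENO1 was more abundant per kilobase in every library, with 3991 to 17670 normalized counts against 37.1 to 376 for ENO2.

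The abundant enzymes between these steps moved by less than LDHA in both COV318 populations. In OVCAR3-CTR the log2FC was 0.98 for PKM and 0.78 for GPI, against 0.77 for LDHA. PKM, the pyruvate kinase, had normalized counts of 47000 in bulk and 92850 in OCSC of OVCAR3-CTR, 51940 and 51390 in OVCAR3-MGPKO, 21380 and 14740 in COV318-CTR, and 14140 and 24210 in COV318-MGP. GPI, which converts glucose 6-phosphate to fructose 6-phosphate, had 11040 and 18900, 10410 and 9641, 8407 and 9957, and 4169 and 6345 in the same order. GPI was the one upper enzyme above 0 in both COV318 populations. The log2FC of the triose enzyme TPI1 was 0.70, 0.11, -0.33 and 0.28 in that order, that of the kinase PGK1 0.60, 0.11, -0.62 and 0.61, that of the mutase PGAM1 0.44, -0.40, -0.52 and 0.47, and that of ENO1 0.09, -0.41, -0.72 and 0.33. In all 4 of these the lowest value was that of COV318-CTR.

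GAPDH, often used as a reference, was no steady gene here. Its normalized count was 48500 and 58460 in OVCAR3-CTR, 66940 and 53590 in OVCAR3-MGPKO, 63790 and 31270 in COV318-CTR, and 28920 and 42840 in COV318-MGP. The log2FC of OCSC against bulk was -1.03 (-1.05 to -1.01) in COV318-CTR and 0.57 (0.55 to 0.59) in COV318-MGP. HPRT1, the other reference of the study's quantitative PCR, had -0.57 and 0.83 in the same populations. GAPDH has 65 annotated pseudogenes by name, and PGK1, ENO1, PKM and LDHA also have such copies, but none of these is in the count table. The count table does hold 2 pseudogenes of TPI1 and 1 of PGAM1. How reads that match both a gene and such a copy were counted is not stated.

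**Figure D3:**
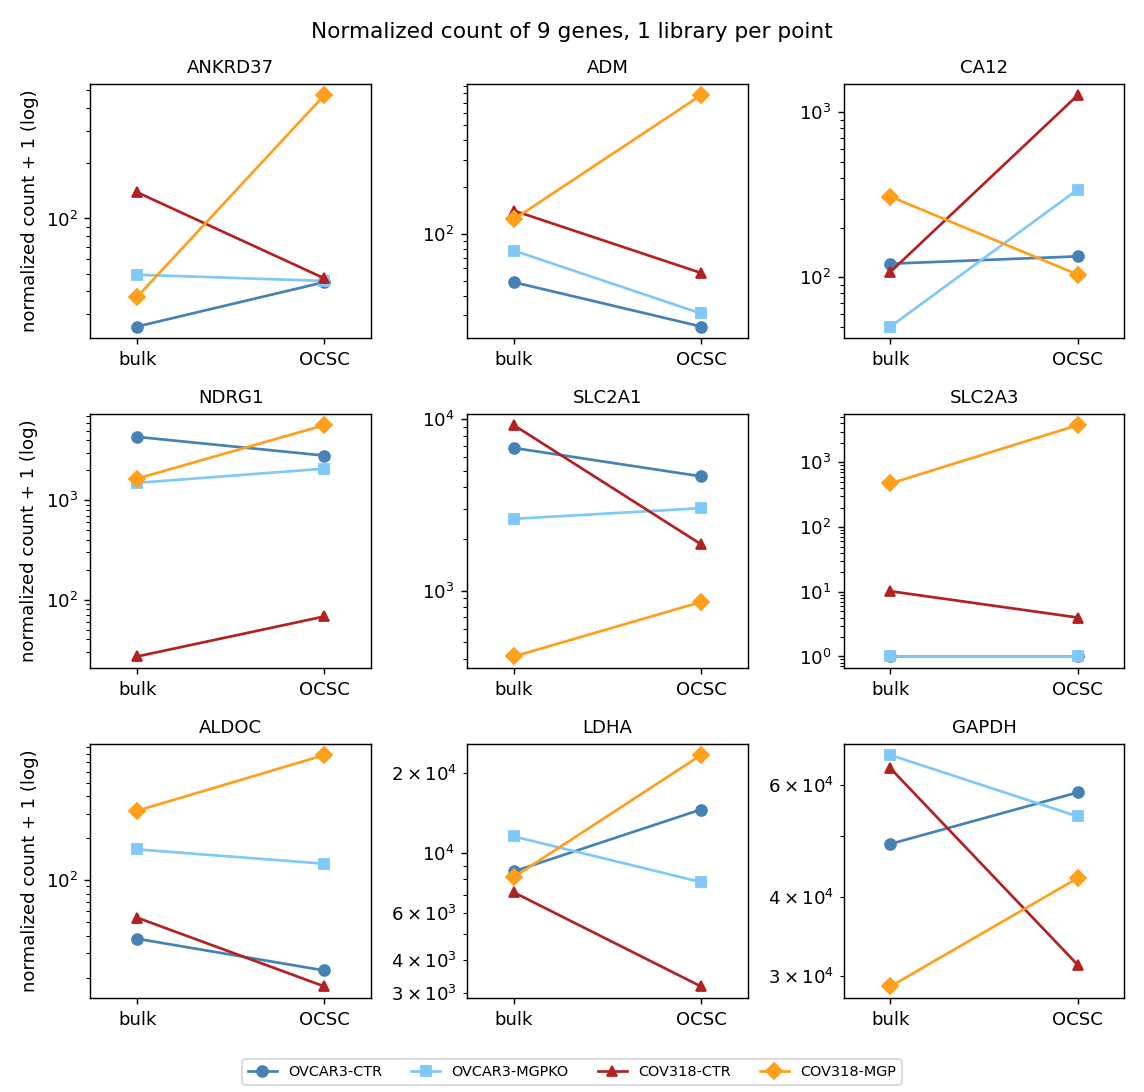
Normalized counts + 1 on a log axis are shown for 9 genes in bulk and OCSC, with 1 library per point and a line for each population. ANKRD37, ADM, SLC2A1, SLC2A3, ALDOC, LDHA and GAPDH have a falling line in COV318-CTR and a climbing one in COV318-MGP, and CA12 has them crossed.

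The MGP-manipulated libraries were then compared with their controls in each culture. In OVCAR3 bulk, 4 of 38 genes were higher in MGPKO by a log2FC of at least 1, against 12.9% of all genes, and 4 were lower, against 8.66%. With CPM these counts were 6 and 4. EGLN3, ALDOC, PFKFB4 and PFKFB3 were higher, by 2.32, 2.13, 1.68 and 1.63, and VEGFA, NDRG1, SLC2A1 and CA12 lower, at -2.94, -1.54, -1.37 and -1.27. In OVCAR3 OCSC, 2 were higher, against 7.31%, and 3 were lower, against 4.88%, and with CPM 2 and 1. These were ALDOC (2.55) and CA12 (1.35), and LOX (-1.33), VEGFA (-1.03) and HK1 (-1.02). ALDOC and VEGFA kept their side of 1 in both cultures, and CA12 was lower in bulk and higher in OCSC.

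In COV318 the populations were further apart in these genes, as in all genes. In bulk, 6 were higher in COV318-MGP, against 21.9% of all genes, and 10 were lower, against 23.8%. In OCSC, 16 were higher, against 25.1%, and 3 were lower, against 25.5%. With CPM the bulk counts were 9 and 7. In bulk the most separated were CA9 with 501 counts in COV318-CTR and 0 in COV318-MGP, at least 164-fold lower, NDRG1 with a log2FC of 5.94 (5.58 to 6.44), SLC2A3 with 5.54 (5.0 to 6.47) and SLC2A1 with -4.48 (-4.59 to -4.38). In OCSC the widest was SLC2A3, with 2 counts in COV318-CTR, 2635 in COV318-MGP and a log2FC of 9.89 (8.46 to 13.36). NDRG1 had 6.39 (5.99 to 6.87) and ALDOC 5.5 (4.74 to 6.60), and CA12 was lower, at -3.60. The median of the 38 genes was -0.18 in bulk and 0.82 in OCSC. Of the 38 genes, 17 had their highest level in COV318-MGP OCSC, against 16.3% of all genes, 7 in COV318-CTR bulk, against 14.6%, and 5 in OVCAR3-CTR OCSC, against 12.3%.

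The sphere effect of the manipulated population minus that of its control, which uses the same 4 libraries of a line, had a median of 1.35 over the 38 genes in COV318 and of -0.39 in OVCAR3, against 0.02 and -0.02 over all genes. In COV318 it was above 0 for 34 of 38 genes, against 50.9% of all genes, and in OVCAR3 it was below 0 for 25 of 38, also against 50.9%. Among the 19 glucose entry and glycolysis genes it was above 0 for 19 in COV318. SLC2A3, at 0 counts in all OVCAR3 libraries, has a difference of 0 there. No test of these differences was possible with 1 library per condition.

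Further genes of the pathway were read in the same way. Of 24 other HIF targets, 7 were higher and 2 lower by a log2FC of at least 1 in COV318-MGP, where 9.36% and 8.15% of all genes were, and 1 higher and 6 lower in COV318-CTR, where 10.3% and 8.30% were, with medians of 0.59 and -0.39. In OVCAR3-CTR 8 were higher and 4 lower, against 12.8% and 12.5%, and in OVCAR3-MGPKO 2 and 1, against 7.23% and 9.00%, with medians of 0.74 and 0.10. Of 14 other glycolysis isozymes that passed the filter, 1 was higher and 1 lower in COV318-MGP, with a median of -0.15, and in COV318-CTR 3 were higher and 0 lower, with 0.09, to be read against the same shares. A list of 13 genes for the entry of pyruvate into mitochondrial metabolism, which holds the carriers, the pyruvate dehydrogenase subunits, pyruvate carboxylase and also the kinases and phosphatases that switch the dehydrogenase off and on, had medians of 0.00 in COV318-MGP and 0.23 in COV318-CTR, and those of the pentose phosphate pathway (7 genes) had 0.38 and -0.22. The 7 reference mRNAs had a median of 0.46 in COV318-MGP and -0.46 in COV318-CTR, the same signs as the 38 genes. None of these genes was called by edgeR over the 4 populations at an adjusted p under 0.05.

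**Figure D4:**
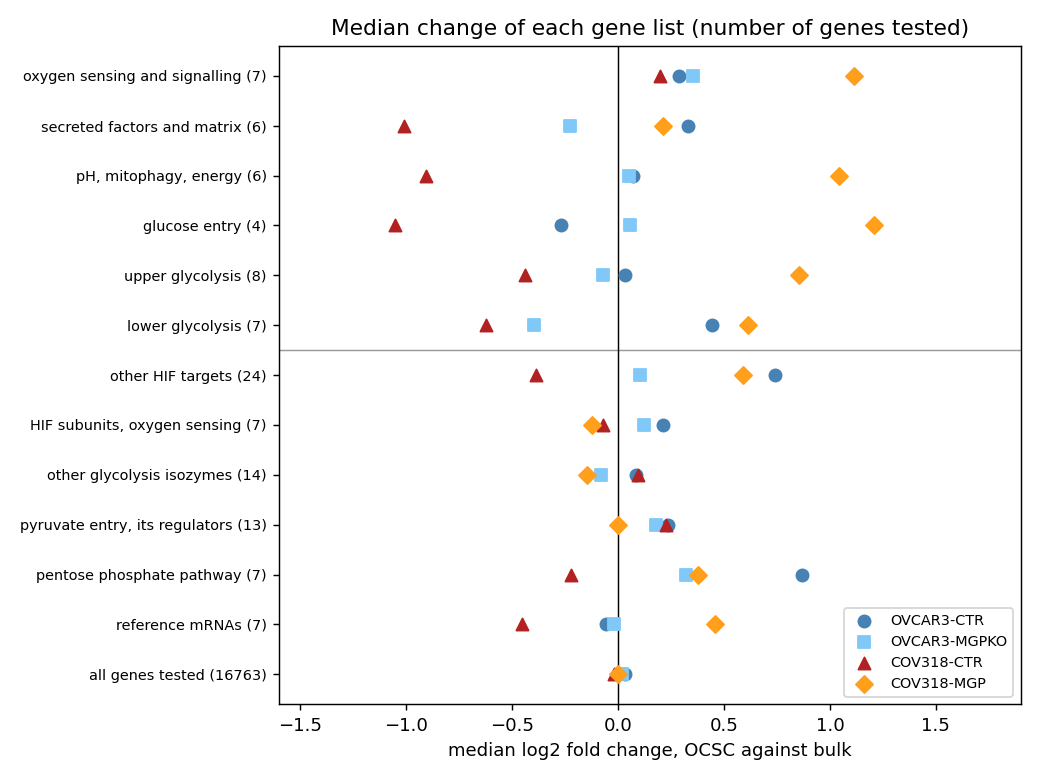
The median log2 fold change of OCSC against bulk is shown for 6 role groups of the 38 genes (above the line) and for other lists and all genes (below it), with 1 point per population and the number of genes in parentheses. COV318-MGP is the highest point in 5 of the 6 role groups and COV318-CTR the lowest in all 6, while the reference mRNAs show the same order with medians of 0.46 and -0.46.

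The HIF subunits were set beside their targets. HIF1A had normalized counts of 14810 in bulk and 6545 in OCSC of COV318-CTR, 2363 and 2127 in COV318-MGP, 6438 and 7450 in OVCAR3-CTR, and 4608 and 6321 in OVCAR3-MGPKO. Both COV318-MGP libraries had the lowest HIF1A mRNA of the 8. EPAS1, which encodes HIF-2 alpha, was higher in OCSC of OVCAR3-CTR and COV318-CTR, with a log2FC of 1.76 and 1.51, was at 0.07 in COV318-MGP, and was lower in OVCAR3-MGPKO, at -0.47 (-0.64 to -0.30). ARNT, the common partner, was between 0.09 and 0.86 in the 4 populations. ARNT2 was lower in OCSC in all 4, as were 7.02% of all genes, but had only 3 to 16 counts in OVCAR3. Its normalized count was 3232 and 1712 in COV318-CTR and 766 and 667 in COV318-MGP. HIF3A had 117 and 74.3 in COV318-CTR, 1.6 and 1.4 in COV318-MGP, and 30.8 to 71.9 in OVCAR3. HIF is controlled mainly at the protein level, which was not measured in these libraries.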

How the data were processed

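RNA libraries from total RNA were grouped by their labels. Per the labels, STAR 2.7.5c and hg38 served for alignment, and the authors deposited raw counts per gene. They also deposited a normalized signal per gene, the count divided by the DESeq2 size factor. The annotation and the strand setting are not given in the sources used here. Size factors were recomputed over the 15518 genes above 0 in every library, and the largest relative difference from the deposited values was 7.55e-10.

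Log2FC was computed on the normalized count + 1, with a filter at a mean of 10, a threshold of 1 and a floor of 3 counts. Intervals are exact Clopper-Pearson intervals of the ratio of 2 counts. Tests were edgeR 4.0.16 (quasi-likelihood, Benjamini-Hochberg) and DESeq2 1.42.0 in R 4.3.3, and both cultures of a population formed a block. Scripts were tested on simulated data. Python 3.11.15 was used with scipy 1.17.1.

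Gene positions and exon lengths came from GENCODE 44, promoters from RefSeq. The genes and lists were chosen with earlier results of these data known. Values for 8 libraries were given for the 10 genes with the largest mean log2FC in size and up to 6 with the largest difference between lines. Both rankings took only genes with a mean normalized count of at least 50. Such values were also given for GAPDH, up to 4 genes with the largest difference between manipulated and control cells in each line, and selected members of isozyme pairs.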

Additional observations from a re-analysis of the deposited data

Results flagged for a closer look

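In 12 genes the sphere effect had opposite directions and a log2FC of at least 1 in size in COV318-CTR and COV318-MGP. With 1 library per condition the difference was not tested. The log2FC in COV318-MGP minus that in COV318-CTR was 5.96 for CA9, 5.22 for ANKRD37, 4.35 for SLC2A3 and 3.99 for ADM. It was 3.36 for SLC2A1, 2.99 for PFKFB3, 2.96 for ALDOC, 2.69 for LDHA, 2.67 for PFKFB4, 2.21 for BNIP3L and 2.15 for P4HA1, and -5.12 for CA12. CA9 had at most 4 counts in the COV318-MGP libraries.

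Between the control populations, P4HA1 and PFKFB4 were higher in OCSC of OVCAR3-CTR and lower in OCSC of COV318-CTR. The COV318-CTR minus OVCAR3-CTR log2FC was -2.58 for P4HA1 and -3.0 for PFKFB4, and this difference was not tested for a single population pair.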

How the results depend on the processing

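The alternatives were TMM factors, CPM, the median of ratios within each pair of libraries, pseudocounts of 0.5 and 10, a log2FC threshold of 1.5 and a counting interval that excludes no change; for the tests they were TMM, no filter, a mean of at least 50, DESeq2, the line as block and each population left out in turn. In 96 computed values 85 stayed within the limits set and 11 did not. For counts the limits used the total of higher and lower genes, so a change of direction was not registered. With CPM, MGP against control in COV318 bulk went from 6 higher and 10 lower to 9 and 7, which stayed within the limits. The tests called 0 of the 38 genes in each alternative, with the smallest adjusted p among them between 0.124 and 1. At a threshold of 1.5 the genes past it were 2 in OVCAR3-CTR, 3 in OVCAR3-MGPKO, 8 in COV318-CTR and 9 in COV318-MGP for OCSC against bulk, 1 for MGPKO against control in OVCAR3 OCSC and 10 for MGP against control in COV318 bulk. With CPM they were 12 in COV318-MGP for OCSC against bulk and 3 (2 higher, 1 lower) in OVCAR3 OCSC. The count of 11 opposed genes was 7 with TMM, 6 with CPM and 2 at a threshold of 1.5, alternatives chosen after the data were seen. CPM moved the median of all genes by up to 0.278 on the log2 scale. The tests take the bulk and OCSC libraries of a population as a pair, and the labels give no further replicate numbers to pair by. With 1 library per condition, a p-value over 4 populations is limited by 3 residual degrees of freedom, and genes with few counts (CA9, SLC2A3 in COV318-CTR) cannot be ranked.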
